A study of Mus musculus with 24 samples.

Results

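Cadherins are calcium-dependent adhesion proteins that let a cell hold on to neighbours carrying matching cadherins. They were described here in 2 brain regions of the mouse, the cerebellum and the frontal cortex. The members were every gene whose platform symbol is Cdh followed by a number, without Cdh5, or begins with Pcdh, and that had a probe with a detection p-value under 0.05 on 6 or more of 24 arrays. Of 87 such genes on the array, 56 passed (79 of their 144 probes), and each gene was read by its brightest probe. The other 31 genes were too dim to be measured, and 20 of them were detected on no array. The 56 members are a small part of the 11439 named genes with a measured probe.

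Total RNA came from 12 untreated mice of the inbred strain SJL/JOrlCrl, all 10 weeks old, and was hybridised to Illumina MouseWG-6 v2.0 bead arrays. The groups were female cerebellum, male cerebellum, female frontal cortex and male frontal cortex, with 6 arrays in each, and both tissues came from the same animals. No group carried a transgene or received an agent. A level is the background-corrected and quantile-normalised bead intensity on a log2 scale, and a difference is cerebellum minus frontal cortex, or female minus male, of such levels. Levels of different genes come from different probes and were not set against each other.

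Median scanner signal ran from 69.3 to 75.2 per array, and 18099 to 19927 of 45281 probes were detected (40.0% to 44.0%). Levels of arrays in the same group correlated at 0.983 to 0.995 over the measured probes, and those of different tissues at 0.904 to 0.934. The tissue labels were checked on marker genes. The 3 measured Purkinje cell markers of 8 listed and the 5 measured granule cell markers of 8 listed were all higher in cerebellum. All 6 measured cortical pyramidal neuron markers of 8 listed were lower there. Of these markers, Pcp2, Slc1a6, Neurod1 and Gabra6 met the detection rule only through the cerebellum and Tbr1 and Rasgrf2 only through the cortex. Their direction was set by that rule and is no check of the labels. The check rests on Rgs8, Etv1, Zic1 and Zic2, which were higher, and on Fezf2, Slc17a7, Nrn1 and Cux2, which were lower.

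In classical cadherins, the cytoplasmic tail binds catenins, which couple the contact to actin. Type I members include E-cadherin and N-cadherin, and many type II members mark particular groups of neurons during brain development. Clustered protocadherins are encoded in 3 neighbouring gene arrays named alpha, beta and gamma. Each neuron switches on a few of their many promoters, and the resulting combinations help a neuron tell its own branches from those of other cells. Delta protocadherins lie outside the clusters, and several of them regulate actin through the WAVE complex.

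Tissue differences were common in the family and ran both ways. In cerebellum 17 of the 56 members were higher (30.4%) and 20 were lower (35.7%) than in frontal cortex at an adjusted p under 0.05, and 19 did not pass. Among all 21113 measured probes 36.8% were higher and 31.0% were lower, so the family's shares lay near those of the whole array. Of the members that passed, 6 of the 17 higher and 2 of the 20 lower met the detection rule only through the tissue in which they are higher, so their direction was set by that rule. They were Cdh20, Pcdh12, Pcdhga8, Pcdhga12, Pcdhgb2 and Pcdhgc4 among the higher, and Pcdh8 and Pcdha5 among the lower. Without them 11 members were higher and 18 lower. The median difference over members was -0.02, against 0.03 over all measured probes. In each sex taken alone, 26 members passed with the same sign (46.4%, against 49.6% of all probes), of which 9 were higher and 17 lower. The cerebellar and cortical arrays did not overlap for 15 members (26.8%, against 27.3% of all probes), 4 of them higher and 11 lower in cerebellum. Both of these counts include members whose direction was set by the detection rule, such as Pcdhgb2 and Pcdh8. Only 10 members passed with more than a 2-fold difference, 2 of them higher in cerebellum (5.79% of all probes were) and 8 lower (6.75% of all probes were). Because these were pieces of tissue, fewer cells of a type and less RNA per cell cannot be told apart.

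**Figure D1:**
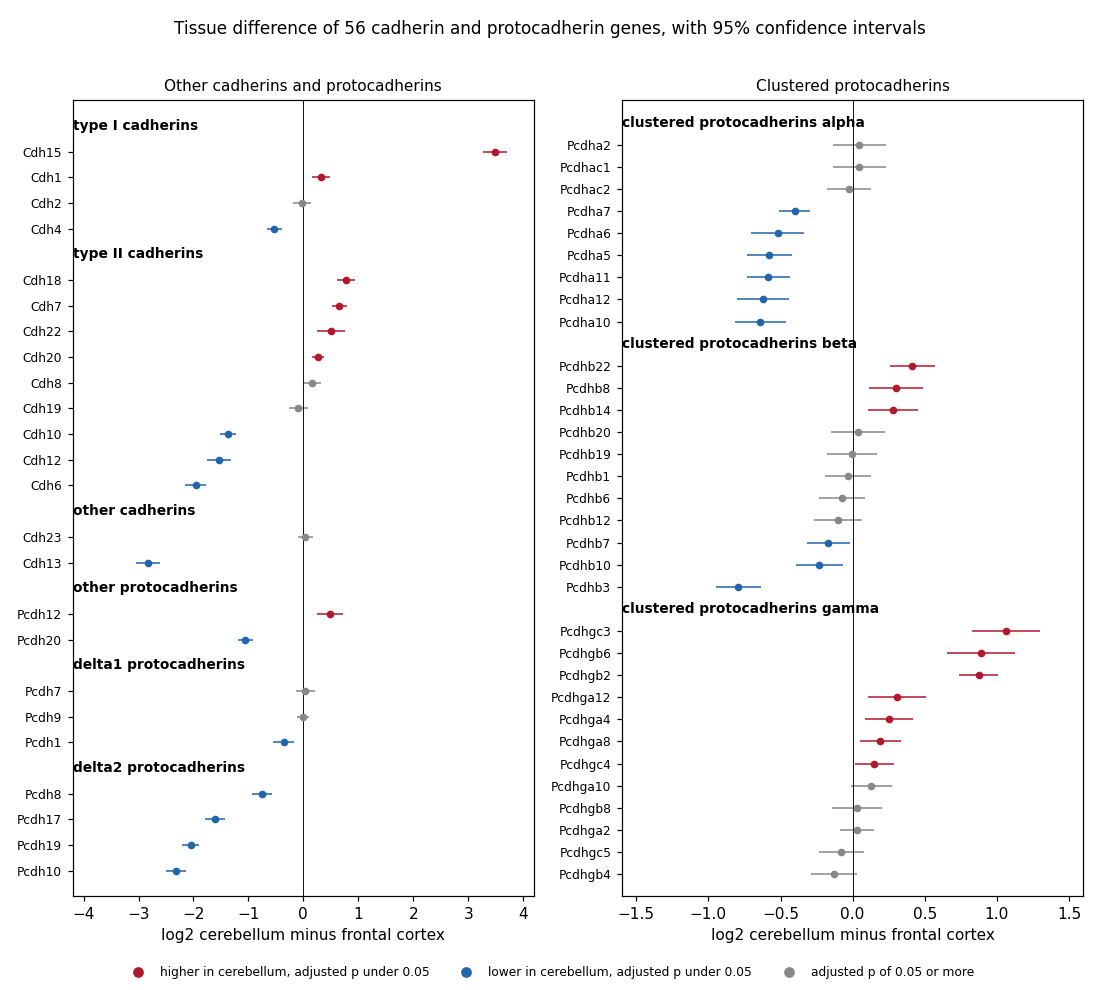
Each point is the log2 difference of 1 gene, cerebellum minus frontal cortex over both sexes (12 arrays per tissue), with its 95% confidence interval from the fit. Genes are grouped by subfamily, and the horizontal scale of the clustered protocadherins is narrower. Cdh15 stands far to the right at 3.49, and the 4 delta2 protocadherins all lie left of 0, while the 6 alpha genes that passed lie left and the 7 gamma genes that passed lie right. Of these, Pcdh8, Pcdha5, Pcdhga8, Pcdhga12, Pcdhgb2 and Pcdhgc4 had their direction set by the detection rule.

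Type I cadherins were led by Cdh15, the gene of M-cadherin, which was first described in muscle and is also made by cerebellar granule cells. Its level was 9.02, 9.13 and 9.46 in cerebellum (lowest, median and highest of 12 arrays), against 5.01, 5.71 and 6.33 in frontal cortex. Every cerebellar array was above every cortical array. The difference was 3.49 ± 0.11 (SE), an 11.2-fold higher level with an adjusted p of 9.5e-21, and it was 3.57 in females and 3.40 in males. Without background correction the fold was 6.11.

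Cdh1, the gene of the epithelial E-cadherin, had levels of 4.90, 5.20 and 5.49 in cerebellum, against 4.49, 4.83 and 5.32 in frontal cortex. The ranges overlapped, and the probe was detected on all 12 cerebellar arrays and 7 of 12 cortical arrays. Its difference of 0.33 ± 0.08 passed (adjusted p = 0.000717). In contrast, Cdh4, the gene of R-cadherin, fell in cerebellum, with 7.56, 8.03 and 8.39 there against 8.28, 8.49 and 8.99 in frontal cortex. This difference was -0.53 ± 0.07 (adjusted p = 2.21e-07). Cdh2, the gene of the synaptic N-cadherin, did not pass, with a difference of -0.02 and a 95% interval from -0.20 to 0.15.

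Among type II cadherins 4 genes were higher and 3 lower in cerebellum, of 9 measured out of 12 on the array. Over all measured probes 36.8% were higher and 31.0% lower. Of the 4 higher genes, Cdh20 is listed above as entering through the cerebellum alone. Cdh18 had levels of 5.46, 5.62 and 6.05 in cerebellum, against 4.57, 4.86 and 5.57 in frontal cortex. A single cortical array reached into the cerebellar range, and the difference was 0.78 ± 0.08 (adjusted p = 2.2e-09). Cdh7 had levels of 7.44, 7.69 and 7.96 in cerebellum, against 6.88, 7.01 and 7.43 in frontal cortex, with no overlap. Its difference of 0.65 ± 0.07 had an adjusted p of 1.8e-09, and all 3 of its measured probes were higher in cerebellum. The dimmest of the 3 was detected on 8 cerebellar arrays and 0 cortical arrays, so its direction was set by the detection rule.

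Cdh22 had levels of 5.05, 5.89 and 6.17 in cerebellum, against 4.72, 5.31 and 5.88 in frontal cortex. The ranges overlapped widely, and the difference was 0.50 ± 0.12 (adjusted p = 0.000862). Cdh20 was at the edge of the detection rule, with 6 cerebellar arrays and no cortical array detected. It passed that rule only through the tissue in which it is higher, so its difference of 0.26 ± 0.05 (adjusted p = 0.000135) is no support for a direction.

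The type II cadherins that fell did so by more. Cdh6, first described in kidney and used as a marker of neuronal subdivisions, had levels of 4.73, 4.92 and 5.61 in cerebellum, against 6.74, 7.00 and 7.31 in frontal cortex. No cerebellar array reached the lowest cortical one, and the difference was -1.96 ± 0.09, a 3.89-fold lower level (adjusted p = 1.07e-16). Cdh12, also called brain cadherin, had levels of 5.12, 5.59 and 5.91 in cerebellum, against 6.30, 7.02 and 7.40 in frontal cortex. Again the arrays did not overlap, and the difference was -1.53 ± 0.10 (adjusted p = 4.85e-13). Cdh10 had levels of 4.58, 4.81 and 5.18 in cerebellum, where 9 of 12 arrays detected it, against 5.87, 6.15 and 6.52 in frontal cortex. Its difference was -1.37 ± 0.07 (adjusted p = 4.24e-16), without overlap. Without background correction the folds lower in cerebellum were 2.14 for Cdh6, 1.88 for Cdh12 and 1.58 for Cdh10, against 3.89, 2.89 and 2.59 in the values above.

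Among members that fit neither class, Cdh13 had the largest fall of the family on the brightest probes. It encodes T-cadherin, which lacks the usual tail and is held to the membrane by a lipid anchor. Levels were 5.47, 6.12 and 6.49 in cerebellum, against 8.56, 8.79 and 9.16 in frontal cortex, and the 2 sets of arrays lay far apart. The difference was -2.83 ± 0.10, a 7.11-fold lower level (adjusted p = 5.31e-19), with -2.63 in females and -3.03 in males. Without background correction the level was 4.41-fold lower. All 3 measured Cdh13 probes were lower in cerebellum, by -2.30 to -2.83. The dimmest of the 3, detected on 4 cerebellar and 12 cortical arrays, met the detection rule only through the cortex. With the mean over a gene's measured probes Pcdh10 fell further (-2.57) than Cdh13 (-2.49). Cdh23, whose protein forms part of the tip links of inner ear hair cells, did not pass (difference 0.04, 95% interval -0.10 to 0.17).

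**Figure D2:**
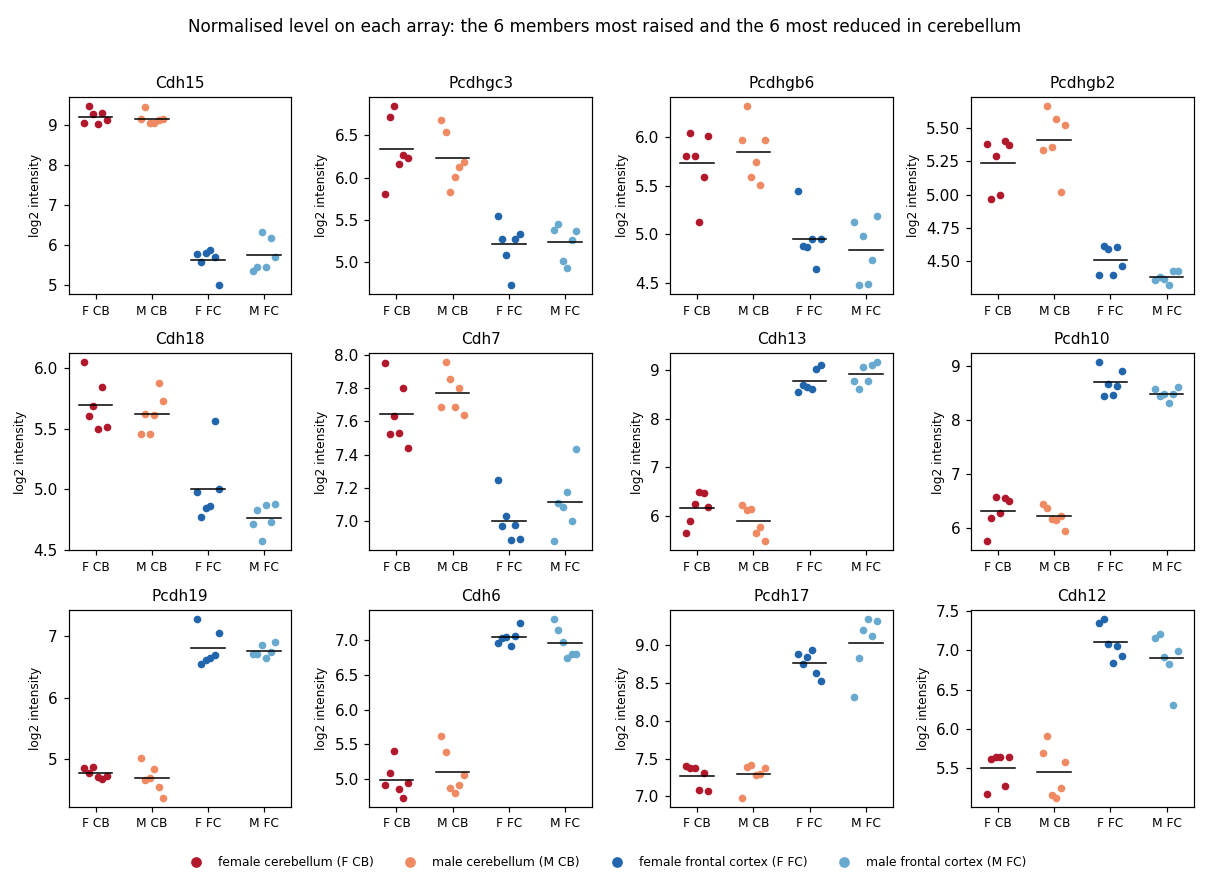
Log2 intensity on each of 24 arrays for the 6 members most raised and the 6 most reduced in cerebellum, in the order female cerebellum, male cerebellum, female frontal cortex and male frontal cortex. Points are arrays and black lines are group means of 6, and each panel has its own vertical scale, which does not start at 0. The tissues separate in Cdh15, Pcdhgc3, Pcdhgb2, Cdh7 and all 6 reduced genes, whereas in Pcdhgb6 and Cdh18 at least 1 cortical array reaches the cerebellar range. The direction of Pcdhgb2 was set by the detection rule, so its separation is no support.

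Cdh6, Cdh9, Cdh10, Cdh12 and Cdh18 follow each other on chromosome 15, with 1 other coding gene between Cdh12 and Cdh18 in the RefSeq annotation of GRCm38.p6. Of the 4 measured, 3 fell and Cdh18 rose, so neighbours moved in opposite directions, while Cdh9 was detected on no array. On chromosome 14, Pcdh17 and Pcdh20 fell, Pcdh8 was lower but entered only through the cortex, and their neighbour Pcdh9 did not pass. On chromosome 1, Cdh7 rose, Cdh20 entered only through the cerebellum, and Cdh19, next to Cdh7, did not pass.

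Promoters are shown for the member that rose most, for a delta2 protocadherin that fell, and for 2 chromosome 15 genes that moved in opposite directions. RefSeq's promoter windows for GRCm38.p6 run from 250 bases before to 50 bases after a gene's start. The 32 clustered protocadherins, Cdh2, Pcdh1 and Pcdh12 were left out of this step, and their windows were not examined. With these left out, windows were found for 17 of the 56 members. Capitals mark E-boxes (CANNTG, which reads the same on both strands and is the motif of basic helix-loop-helix factors), and each sequence runs 5′ to 3′ along the gene's own strand.
Cdh15, higher in cerebellum, chr8:122848124-122848423, plus strand of GRCm38.p6: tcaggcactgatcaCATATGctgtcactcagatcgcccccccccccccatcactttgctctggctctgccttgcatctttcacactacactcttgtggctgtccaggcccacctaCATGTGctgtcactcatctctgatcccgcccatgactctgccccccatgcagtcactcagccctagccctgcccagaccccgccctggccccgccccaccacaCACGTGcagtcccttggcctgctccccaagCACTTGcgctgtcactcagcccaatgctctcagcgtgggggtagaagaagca
Cdh18, higher in cerebellum, chr15:23036213-23036512, plus strand of GRCm38.p6: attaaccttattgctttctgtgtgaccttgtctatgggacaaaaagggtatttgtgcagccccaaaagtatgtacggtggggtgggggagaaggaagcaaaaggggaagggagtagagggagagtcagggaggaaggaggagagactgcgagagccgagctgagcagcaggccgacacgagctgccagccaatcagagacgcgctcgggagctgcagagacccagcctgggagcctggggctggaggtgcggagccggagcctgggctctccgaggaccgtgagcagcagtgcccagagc
Pcdh10, lower in cerebellum, chr3:45378148-45378447, plus strand of GRCm38.p6: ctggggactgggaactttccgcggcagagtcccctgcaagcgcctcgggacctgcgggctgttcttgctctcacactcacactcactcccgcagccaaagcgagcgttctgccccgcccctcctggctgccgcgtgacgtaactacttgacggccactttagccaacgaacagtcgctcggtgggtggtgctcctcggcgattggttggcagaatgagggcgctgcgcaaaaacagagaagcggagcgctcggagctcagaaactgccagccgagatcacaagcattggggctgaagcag
Cdh10, lower in cerebellum, chr15:18820079-18820378, plus strand of GRCm38.p6: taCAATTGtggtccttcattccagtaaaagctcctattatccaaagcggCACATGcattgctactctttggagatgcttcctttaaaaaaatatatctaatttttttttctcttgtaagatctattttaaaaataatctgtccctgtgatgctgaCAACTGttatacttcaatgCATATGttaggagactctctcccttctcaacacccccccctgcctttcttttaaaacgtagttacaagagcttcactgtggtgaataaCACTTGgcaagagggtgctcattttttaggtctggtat
The Cdh15 window holds 4 E-boxes, a count reached by 6.49% of the 32851 windows in the table. The Cdh10 window holds 5, reached by 2.1% of windows, while the Cdh18 and Pcdh10 windows hold 0 and 72.3% of all windows hold at least 1. A high count therefore stood in front of a gene that rose and of a gene that fell. Among members with an entry, 3 of 5 that were higher, Cdh20 included, and 4 of 8 that were lower, Pcdh8 included, had an E-box in the first listed window. No clustered protocadherin is in these counts. CG pairs numbered 7 in the Cdh15 window and 12 in that of Cdh18, against 24 in the Pcdh10 window and 2 in that of Cdh10. The median over all windows was 7.

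All 4 measured delta2 protocadherins were lower in cerebellum, out of 5 on the array, with a median difference of -1.83. Of all measured probes 31.0% were lower. For 3 of the 4 genes the detection rule did not set the direction, while Pcdh8 entered only through the cortex. Pcdh10, also called OL-protocadherin, recruits the WAVE complex and guides axons. It had levels of 5.76, 6.26 and 6.59 in cerebellum, against 8.31, 8.54 and 9.07 in frontal cortex. The tissues did not overlap, and the difference was -2.32 ± 0.09, a 5.01-fold lower level (adjusted p = 8.05e-19). Its 3 measured probes gave differences from -2.29 to -3.10.

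Pcdh19 is X-linked, and in humans its mutations cause an epilepsy that mainly affects females. Its levels were 4.37, 4.72 and 5.01 in cerebellum, against 6.54, 6.70 and 7.28 in frontal cortex, so no cerebellar array came near the cortical range. Only 6 of 12 cerebellar arrays detected it. The difference was -2.05 ± 0.08 (adjusted p = 8.05e-19), and set against the lowest detected signal of each cerebellar array the cortical level was at least 3.96-fold higher. Without background correction the level in cerebellum was 2.11-fold lower.

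Pcdh17, which acts at synapses of cortical and striatal circuits, had levels of 6.98, 7.34 and 7.41 in cerebellum, against 8.32, 8.86 and 9.34 in frontal cortex. Here too the tissues stood apart, with a difference of -1.61 ± 0.09 and a 3.05-fold lower level (adjusted p = 8.34e-15). Pcdh8, or arcadlin, is induced by neuronal activity and takes part in the uptake of N-cadherin. It was detected on 3 of 12 cerebellar arrays and on all 12 cortical arrays, with levels of 4.33, 4.57 and 4.84 in cerebellum, against 4.89, 5.27 and 5.72 in frontal cortex. The difference was -0.75 ± 0.09 (adjusted p = 1.98e-08), and the cortical level was at least 1.52-fold higher.

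Of the 3 delta1 protocadherins, Pcdh1 fell by 0.36 on the log2 scale (adjusted p = 0.00123), and Pcdh7 and Pcdh9 did not pass. The 95% interval for Pcdh9 ran from -0.11 to 0.10, and that for Pcdh7 from -0.14 to 0.21. Pcdh20, which belongs to neither delta group here, had levels of 6.92, 7.09 and 7.38 in cerebellum, against 7.89, 8.12 and 8.49 in frontal cortex. There was no overlap, and its difference was -1.06 ± 0.07 (adjusted p = 1.42e-13).

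Pcdh12 is known from endothelial cells, where it is also called VE-cadherin-2. It was higher in cerebellum, with levels of 4.44, 5.15 and 5.64 there against 4.29, 4.60 and 4.93 in frontal cortex, and overlapping ranges. It was detected on 9 of 12 cerebellar and 3 of 12 cortical arrays, and the difference was 0.48 ± 0.12 (adjusted p = 0.000624). Set against the lowest detected signal the cerebellar level was at least 1.23-fold higher, and Pcdh12 met the detection rule only through the cerebellum. Of 6 endothelial markers, 2 rose and 4 did not pass. Their mean level ran from 7.14 to 7.32 in female cerebellum and 7.12 to 7.35 in male cerebellum, against 6.88 to 7.26 in female and 6.88 to 7.29 in male frontal cortex. Their part in the Pcdh12 difference was not tested.

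In the clustered protocadherins the calls were counted by cluster. Of all measured probes 36.8% were higher and 31.0% lower in cerebellum. None of the 9 measured alpha genes was higher and 6 were lower. Of 11 beta genes 3 rose and 3 fell, and of 12 gamma genes 7 were higher and none lower. Of the 7, Pcdhgb2, Pcdhgc4, Pcdhga12 and Pcdhga8 met the detection rule only through the cerebellum, which leaves 3 gamma genes (Pcdhgc3, Pcdhgb6 and Pcdhga4). Likewise Pcdha5 met it only through the cortex, which leaves 5 alpha genes. Median differences were -0.52 for alpha, -0.03 for beta and 0.17 for gamma. The alpha and gamma medians include the genes that met the detection rule through 1 tissue only. The counts leave out 3 of 12 alpha, 11 of 22 beta and 8 of 20 gamma genes that were too dim. In the alpha and gamma clusters each variable exon is joined to constant exons that the whole cluster shares. Which exons a probe matches is not given in the tables used here, so a probe may read several isoforms, and the genes of a cluster are not independent measurements.

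**Figure D3:**
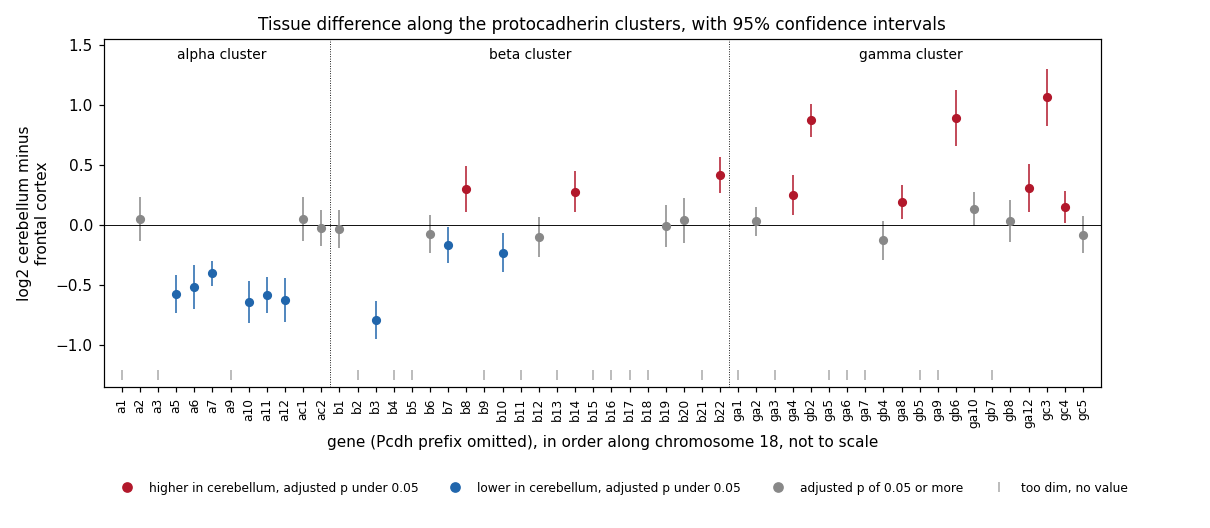
Log2 difference, cerebellum minus frontal cortex over both sexes, with 95% confidence intervals, for the alpha, beta and gamma genes in their order along chromosome 18 (spacing not to scale). Grey ticks at the lower edge are genes too dim for a value. From Pcdha5 to Pcdha12 every measured gene lies below 0, Pcdhac1 and Pcdhac2 lie near 0, and Pcdhgb2, Pcdhgb6 and Pcdhgc3 lie highest. The directions of Pcdha5, Pcdhga8, Pcdhga12, Pcdhgb2 and Pcdhgc4 were set by the detection rule.

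Pcdha10 had levels of 4.83, 5.21 and 5.47 in cerebellum, against 5.36, 5.93 and 6.06 in frontal cortex. The ranges overlapped slightly, and the difference was -0.64 ± 0.09 (adjusted p = 2.02e-07). Pcdha12 had levels of 4.68, 5.12 and 5.41 in cerebellum, against 5.31, 5.73 and 6.20 in frontal cortex, a difference of -0.62 ± 0.09 (adjusted p = 4.89e-07) with slight overlap. The other alpha genes that were lower were Pcdha11 (-0.58), Pcdha5 (-0.58), Pcdha6 (-0.52) and Pcdha7 (-0.40), and among all 6 the arrays failed to overlap for Pcdha11. Pcdha5 was detected on 3 of 12 cerebellar arrays, and its cortical level was at least 1.33-fold higher. Each of the 6 was lower in females and in males taken alone.

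The alpha genes that did not pass were Pcdha2, Pcdhac1 and Pcdhac2, with differences of 0.05, 0.05 and -0.03. Pcdhac1 and Pcdhac2 are the C-type isoforms of the cluster, and Pcdhac2 is needed for the even spacing of serotonergic axons. Pcdhac2 was detected on all 24 arrays, and its 95% interval ran from -0.17 to 0.12.

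In the beta cluster, whose genes each consist of a single coding exon, Pcdhb3 changed most. Its levels were 5.87, 6.24 and 6.52 in cerebellum, against 6.67, 7.06 and 7.33 in frontal cortex, with no overlap and a difference of -0.79 ± 0.08 (adjusted p = 5.8e-10). Pcdhb10 (-0.23) and Pcdhb7 (-0.17) fell as well. Pcdhb22 had levels of 5.95, 6.40 and 6.62 in cerebellum, against 5.59, 5.92 and 6.25 in frontal cortex. It rose by 0.41 ± 0.07 on the log2 scale (adjusted p = 1.86e-05), although the ranges overlapped. Pcdhb8 had levels of 5.41, 5.75 and 6.02 in cerebellum, against 4.75, 5.40 and 5.75 in frontal cortex, and its difference of 0.30 ± 0.09 passed (adjusted p = 0.00527). Pcdhb14 was higher by 0.28 on the log2 scale.

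In the gamma cluster the C-type isoform Pcdhgc3, a regulator of Wnt signalling, changed most. It had levels of 5.81, 6.21 and 6.85 in cerebellum, against 4.73, 5.27 and 5.55 in frontal cortex. No cortical array reached the cerebellar range, and the difference was 1.06 ± 0.11, a 2.09-fold higher level (adjusted p = 4.73e-09). Pcdhgc3 was the 1 clustered gene past 2-fold.

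Pcdhgb6 had levels of 5.13, 5.80 and 6.31 in cerebellum, against 4.48, 4.91 and 5.44 in frontal cortex, and 8 of 12 cortical arrays detected it. Its difference was 0.89 ± 0.11 (adjusted p = 1.03e-07), with partial overlap. Pcdhgb2 was detected on all 12 cerebellar arrays and on no cortical array, at 4.97, 5.37 and 5.66 in cerebellum against 4.32, 4.41 and 4.62 in frontal cortex. It was at least 1.49-fold higher in cerebellum (adjusted p = 4.97e-12). Having passed the detection rule through the cerebellum alone, it had to lie higher there. The same holds for Pcdhgc4, detected on 6 cerebellar arrays and no cortical one (difference 0.15, adjusted p = 0.0414), which is required for the survival of cortical interneurons.

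Pcdhga12 had levels of 4.47, 4.96 and 5.23 in cerebellum, against 4.26, 4.56 and 4.93 in frontal cortex, where 2 of 12 arrays detected it. Its difference of 0.31 ± 0.10 had an adjusted p of 0.00684, and the ranges overlapped. Set against the lowest detected signal it was at least 1.08-fold higher. The remaining gamma genes that were higher were Pcdhga4 (0.25) and Pcdhga8, which 9 of 12 cerebellar and 5 of 12 cortical arrays detected and which was at least 1.10-fold higher. Those that did not pass were Pcdhga2, Pcdhga10, Pcdhgb4, Pcdhgb8 and Pcdhgc5, with differences from -0.13 to 0.13.

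Members close to the detection rule had levels near background. Just inside it, with 6 arrays detected, Cdh20 averaged 4.68 ± 0.19 in cerebellum against 4.42 ± 0.09 in frontal cortex, and Pcdhgc4 averaged 4.69 ± 0.20 in cerebellum against 4.54 ± 0.10 in frontal cortex (SD, n = 12 each). Just outside it lay Pcdhgb5, detected on 5 arrays, at 4.65 in cerebellum and 4.61 in frontal cortex. Cdh16, Pcdhb4 and Pcdhga7 were detected on 4 arrays each, at 4.60, 4.62 and 4.64 in cerebellum against 4.57, 4.51 and 4.60 in frontal cortex.

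For 16 members more than 1 probe was measured. All measured probes gave the same call in 11 of these genes, and in no gene were probes called in opposite directions. Among the 11, the dimmer Cdh10 probe, the dimmest Cdh7 and Cdh13 probes and both Pcdh8 probes met the detection rule in 1 tissue only. The direction of those probes was set by that rule. Cdh8, a type II cadherin of cortical and striatal neurons, diverged most. Its brightest probe averaged 7.96 ± 0.16 in cerebellum and 7.80 ± 0.22 in frontal cortex and did not pass (difference 0.16, adjusted p = 0.0713). A dimmer probe, detected on all 24 arrays, averaged 7.22 ± 0.35 in cerebellum and 5.60 ± 0.40 in frontal cortex, a difference of 1.62 ± 0.14 (SE). The remaining Cdh8 probe gave -0.20 and did not pass.

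For Pcdhgc5 the brightest probe did not pass at -0.08, but its other probe was detected on 0 of 12 cerebellar arrays and 11 of 12 cortical arrays, so it had no measured cerebellar level. For Pcdh9, 1 of 4 probes was higher at 0.55 while the other 3 lay between -0.00369 and 0.03. The dimmer Pcdh1 probe gave 0.01, against -0.36 for the brightest, and 1 of 3 Pcdha6 probes did not pass at -0.08. What each of these probes matches was not examined.

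**Figure D4:**
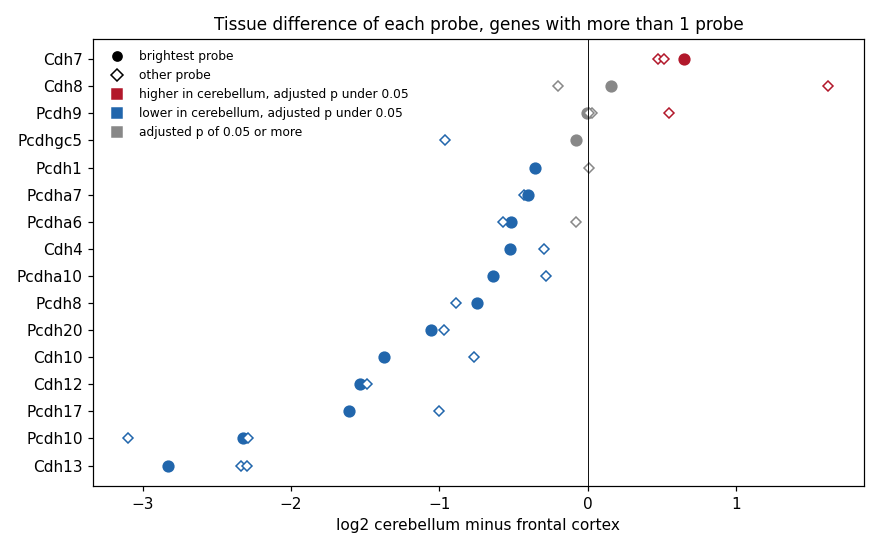
Log2 difference, cerebellum minus frontal cortex over both sexes, of each measured probe of the 16 members with more than 1. Filled circles are the brightest probes used elsewhere, open diamonds the other probes, and colours give the call of each probe. In Cdh8 a dimmer probe lies far from the brightest, whereas the probes of Cdh13, Cdh12, Pcdh20 and Cdh7 lie close together. The dimmer probes of Pcdhgc5, Pcdh8 and Cdh10 and 1 dimmer Pcdha6 probe were detected on 0 of 12 cerebellar arrays. The dimmest Cdh7 probe was detected on 0 of 12 cortical arrays. The points of these probes are not measured differences.

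Other genes of the cadherin system were described by lists and are given here as counts in the same tissue comparison. In that comparison 36.8% of all measured probes were higher in cerebellum and 31.0% were lower. Of 14 catenins and armadillo partners 12 were measured, and 4 rose, 4 fell and 4 did not pass, with a median of -0.03. Ctnna2, the neuronal alpha-catenin, averaged 7.54 ± 0.18 in cerebellum and 8.76 ± 0.29 in frontal cortex (SD, n = 12 each), a difference of -1.22. Pkp3, a plakophilin of desmosomes, rose, and so did the catenin-like Ctnnal1 (1.14), while Pkp2 was lower (-1.05). Pkp3 was detected on 12 cerebellar arrays and 1 cortical array and was at least 2.54-fold higher, so its direction was set by the detection rule.

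Proteases that process cadherins were mostly higher in cerebellum, with 6 of 7 measured genes up and 1 down (10 listed, median 0.61). Pcsk6, a proprotein convertase, averaged 10.41 ± 0.11 in cerebellum and 7.50 ± 0.16 in frontal cortex, a difference of 2.91. Furin, which removes the cadherin prodomain, rose by 0.69 on the log2 scale, and the gamma-secretase genes Aph1a and Psen2 rose by 0.67 and 0.61. The gene that fell was Ncstn, also of gamma-secretase, named after its value of -0.22 was seen.

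All 10 measured genes that regulate the clustered promoters were higher in cerebellum (13 listed, median 0.63), against 36.8% of all measured probes. Of the 10, the cohesin subunit gene Smc3 (9 of 12 cerebellar and 4 of 12 cortical arrays) was measured only through the cerebellum. Dnmt3b, a DNA methyltransferase that acts on these promoters, averaged 6.59 ± 0.10 in cerebellum and 5.27 ± 0.22 in frontal cortex, a difference of 1.32. The cohesin subunits Stag2 and Stag1 rose by 0.91 and 0.84, and the cohesin loader Nipbl by 0.81. In contrast, 8 of 13 measured protocadherin signalling partners were lower and 2 higher (15 listed, median -0.58). Ptk2b, the kinase PYK2, which binds alpha and gamma protocadherins, was detected on 0 of 12 cerebellar arrays and all 12 cortical arrays, and was at least 8.09-fold higher in cortex, the tissue through which alone it was measured. The WAVE complex genes Wasf1 (-0.997), Brk1 (-0.85) and Nckap1 (-0.72) fell as well. The 2 higher genes of this list, Wasf2 (0.35) and Wasf3 (0.40), are WAVE genes too, and Abi1 (-0.27) did not pass. Those last genes were named after their values were seen.

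Of 9 atypical cadherins 3 were measured. Fat1 and the planar polarity gene Celsr3 rose by 1.96 and 1.32, and Celsr2 fell by 1.02 on the log2 scale. Of 12 calsyntenins and other cadherin-repeat genes 7 were measured, and 3 were higher and 3 lower. Cdhr3 was measured only through the cerebellum, where it is higher, and Cdhr1 only through the cortex. Ret, a receptor kinase with cadherin-like repeats, rose by 2.68 and Clstn3 by 0.75, while Clstn1 fell by 0.94. Cdhr1, a gene of photoreceptors and the olfactory bulb, was detected on no cerebellar array, and its cortical levels spread widely (SD 0.81). The medians of these lists, from -0.58 to 1.32, compare with 0.03 over all measured probes.

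Cell type markers differed between the tissues as well, in a comparison in which 36.8% of all measured probes were higher and 31.0% lower in cerebellum. All 6 microglial markers were lower in cerebellum, and 5 of 7 markers of astrocytes and Bergmann glia and 5 of 7 of the oligodendrocyte lineage were higher. Oligodendrocyte lineage markers were higher in 5 and lower in 1 of 7 cases in females alone, against 2 higher and 2 lower in males alone. Of 7 forebrain GABA neuron markers 5 fell and 2 rose. Choroid plexus markers were higher in 6 of 7 cases over both sexes, in 6 of 7 in females alone and in 2 of 7 in males alone. In the oligodendrocyte and choroid plexus lists 0 of 7 markers had a tissue difference that passed as differing by sex. In both lists 0 of 7 passed between the sexes in either tissue. The mean level of the choroid plexus markers ran from 5.92 to 8.79 in female cerebellum and 5.78 to 7.66 in male cerebellum, against 4.58 to 5.03 in female and 4.86 to 5.44 in male frontal cortex. Striatal markers were lower in 6 of 7 cases, at 5.56 to 5.87 in female and 5.50 to 5.68 in male cerebellum, against 6.64 to 8.24 in female and 7.73 to 9.00 in male frontal cortex. Meningeal markers rose in 4 of 5 cases. Several of the marker calls were set by the detection rule. Tac1, Drd1, Drd2 and Gpr6 of the striatal list, Vip and Dlx1 of the GABA neuron list and microglial P2ry12 met it only through the cortex. The choroid plexus markers Kl, Folr1, Kcne2 and Otx2 met it only through the cerebellum. The part of the cell type markers in the differences of the members was not tested. Without the 2 female cerebellar arrays highest in choroid plexus markers, a choice made after seeing the data, 16 members were higher and 19 lower. The share of all probes was not counted for that fit.

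Arrays also fell into 2 label batches by a tag whose meaning the labels do not state, with 2 arrays per group in batch a and 4 per group in batch b. Choroid plexus markers averaged 7.07 to 8.79 on the cerebellar arrays of batch a and 5.78 to 7.28 on those of batch b. In batch a alone 11 members were higher and 18 lower (27.1% and 23.1% of all probes were), and in batch b alone 15 were higher and 19 lower (34.3% and 28.6% of all probes were). Cdh15 differed by 3.72 in batch a and 3.37 in batch b, Cdh13 by -2.70 and -2.90, Pcdh10 by -2.44 and -2.26, and Pcdhgc3 by 1.03 and 1.08. The 4 members with full values above that did not pass within batch a were Cdh22 (0.25), Cdh1 (0.18), Pcdhga12 (0.13) and Pcdhb8 (0.36). Cdh20, Pcdhga4, Pcdhga8, Pcdhb14, Pcdhb10 and Pcdhb7 passed over both batches but not within batch a. The 11 higher members of batch a include Pcdha2 (0.35) and Cdh8 (0.36), which did not pass over both batches. In batch b these 2 differed by -0.11 and 0.06.

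Between the sexes no member passed in either tissue with limma, and none had a tissue difference that passed as differing by sex. In cerebellum 0 of 56 members passed (0.156% of all probes did) and 5 had an unadjusted p under 0.05. In frontal cortex 0 passed (0.171% of all probes) and 3 had an unadjusted p under 0.05. For the interaction of sex and tissue 0 passed (0.109% of all probes) and 4 had an unadjusted p under 0.05. The median half-width of the 95% interval was 0.23 for a sex difference and 0.33 for the interaction.

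Cdh4 had the smallest p in cerebellum. Its levels were 8.15, 8.18 and 8.39 in female cerebellum, against 7.56, 7.88 and 7.91 in male cerebellum (lowest, median and highest of 6). The sexes did not overlap in that tissue, and the difference was 0.40 ± 0.10 (95% interval 0.19 to 0.60), with an adjusted p of 0.176. In frontal cortex the levels were 8.28, 8.43 and 8.70 in females, against 8.30, 8.53 and 8.99 in males, and the ranges overlapped. The interaction for Cdh4 was 0.52 ± 0.14 with an adjusted p of 0.304. Within label batches the cerebellar sex difference of Cdh4 was 0.46 in batch a and 0.37 in batch b, and neither passed.

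Next in cerebellum were Cdh20 (0.25, adjusted p = 0.441) and Pcdhga8 (-0.24, adjusted p = 0.744). In frontal cortex the smallest p belonged to Pcdhac2, with 6.93, 7.09 and 7.40 in females against 6.67, 6.81 and 7.19 in males. Its sex difference there was 0.25 ± 0.10 (adjusted p = 0.412), with 0.56 in batch a and 0.10 in batch b. Pcdhb14 (-0.25, adjusted p = 0.524) and Cdh18 (0.24, adjusted p = 0.526) followed. After Cdh4, the interaction had its smallest p for Pcdhgb2 (-0.31, adjusted p = 0.654) and Pcdhac2 (-0.33, adjusted p = 0.659).

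Within label batch b alone, 1 member passed in cerebellum (0.710% of all probes did) and 1 in frontal cortex (0.952% of all probes did), both named after their values were seen. Pcdh12 was higher in female cerebellum by 0.67 ± 0.12 (adjusted p = 0.00901), averaging 5.42 in females and 4.75 in males there, but in batch a its difference was -0.67 and did not pass. Pcdh17 was lower in female frontal cortex by -0.51 ± 0.10 (adjusted p = 0.015), averaging 8.73 in females and 9.24 in males, against a difference of 0.24 in batch a that did not pass. Striatal markers averaged 7.94 to 8.24 on the batch b cortical arrays of females and 8.68 to 9.00 on those of males, without overlap. Over all cortical arrays 7 of 7 of these markers were lower in females and none passed, and their part in the Pcdh17 difference was not tested. Whether the batches differ in these sex differences was not tested. The X-linked Pcdh19 had sex differences of 0.08 in cerebellum and 0.05 in frontal cortex, with adjusted p of 0.998 and 0.973.

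**Figure D5:**
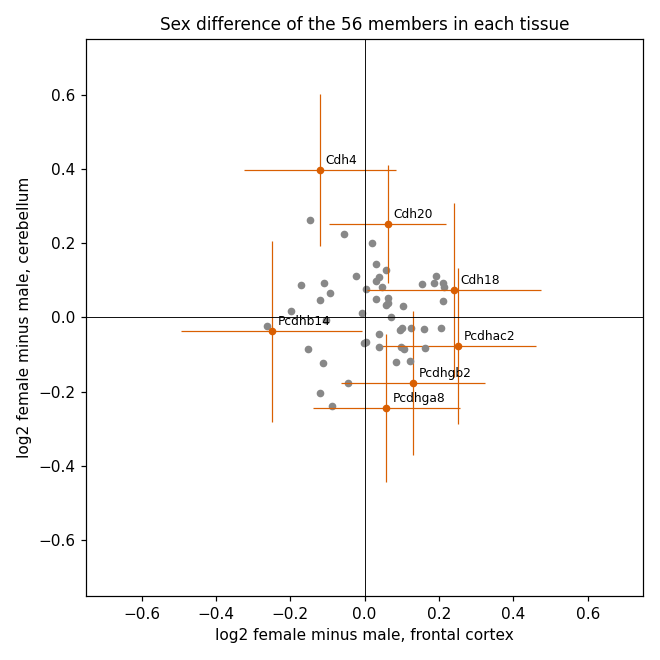
Each point is a member, with its log2 female minus male difference in cerebellum on the vertical axis and in frontal cortex on the horizontal axis, from 6 arrays per group. Orange points with 95% confidence intervals are the members with the smallest p in each test. Of the 56 members 50 lie within 0.25 of 0 on both axes, and Cdh4 stands highest at 0.40.

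Comparing label batch b with batch a over the 4 groups together, a test added after seeing the data, 0 members passed (0.194% of all probes did) and 7 had an unadjusted p under 0.05. The smallest p was that of Cdh4, with a difference of 0.21 for batch b minus batch a (adjusted p = 0.169). Within groups the SD of a member over 6 arrays ran from 0.04 to 0.42 with a median of 0.20. Tissue differences over 1 on the log2 scale were larger than the highest of these SDs. In size, 48 sex differences in cerebellum and 47 in frontal cortex were smaller than the median SD. Such an SD describes single arrays and is not the error of a difference between group means.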

How the data were processed

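Total RNA of both tissues of 12 mice was measured on 24 arrays, grouped by the sex and tissue in their labels. The scanner table that the authors deposited holds, per the file headers, each probe's mean bead intensity on a linear scale, without normalisation between arrays, and a detection p-value. The authors' deposited value table holds linear intensity and served as an alternative. Partek is named in the submitters' processing notes, with no role or version, and no genome build is given in the sources used here.

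Intensities were background-corrected and quantile-normalised here with neqc (limma 3.58.1, R 4.3.3, offset 16), giving log2 values. Files were read with the R package data.table (1.17.8), and statmod 1.5.0 served the fits with a random block. Probes with a detection p-value under 0.05 on at least 6 arrays were kept (21113 of 45281). Where the dimmer tissue detected a probe on 6 or fewer arrays, an "at least" fold sets each of its arrays at the higher of its own value and the lowest detected signal. Gene symbols come from the platform annotation, updated through RefSeq annotation of GRCm38.p6, which also gave chromosomes and gene order.

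All 24 arrays entered lmFit with a term for each of the 4 groups, followed by eBayes (20 residual and 5.82 prior degrees of freedom). All adjusted p are limma's, two-sided, with Benjamini-Hochberg adjustment over all kept probes at 0.05. An animal's 2 arrays are paired by the labels, and their deviations from the group means correlated at -0.30 to 0.24 (over 0.1 in 5 of 12 pairs). The animal entered only as an alternative, as did other normalisations, filters, batch terms and leaving out each array. The precision is limited by the number of arrays.

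Members and lists were chosen with earlier results of these data known. Full values are given for the 12 most raised and 12 most reduced members that passed over both sexes and had the same sign in each sex, for the 3 smallest p-values of each sex test, for members at the detection edge, and for up to 4 genes of each other list with the largest tissue difference.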

Additional observations from a re-analysis of the deposited data

Results flagged for a closer look

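A single array stood apart from the other 5 of its group in 8 of 116 tests (29 members in 4 groups), where chance gives about 1 in 20. In male cerebellum replicate 2 read 9.44 for Cdh15, against 9.03 to 9.14 on the others, 5.05 for Cdh22, against 5.77 to 6.07, and 7.56 for Cdh4, against 7.84 to 7.91. Replicate 1 of that group read 6.98 for Pcdh17, against 7.28 to 7.41. In female cerebellum replicate 2 read 4.97 for Cdh1, against 5.14 to 5.22, and replicate 6 read 4.51 for Pcdhga12, against 4.92 to 5.16. In female frontal cortex replicate 6 read 5.01 for Cdh15, against 5.57 to 5.89, and replicate 5 read 5.57 for Cdh18, against 4.77 to 5. Without the array in question the tissue difference of each of these members passed in the same direction. The direction of Pcdhga12 was set by the detection rule.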

How the results depend on the processing

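Over 18 alternative settings and 24 fits that each left out 1 array, all 24 members with full values kept their direction, and 20 passed in every setting in which they were tested. Of the 24, 12 were tested in all 42 settings, 11 in 41 and 1 in 40. The other 4, Cdh22, Cdh1, Pcdhga12 and Pcdhb8, lost the call in label batch a alone (adjusted p of 0.275, 0.434, 0.477 and 0.0604). The 24 were picked as the most raised and most reduced members that passed in these same data. Pcdhgb2, Pcdh12, Pcdhga12 and Pcdh8 had their direction set by the detection rule, so keeping it is no support. Leaving out an array gave 16 to 18 members higher and 19 to 21 lower over both sexes. With probes detected on all 24 arrays, 27 members remained in the test, and 6 were higher over both sexes, 5 in females and 6 in males, with 11 lower in males. Batch a alone gave 11 higher over both sexes and 6 in females. Batch b alone gave 1 member higher in female than male cerebellum and 1 lower in female than male frontal cortex. With the animal as a replicate block, random or fixed, 17 members were higher and 20 lower over both sexes, as in the fit without it, and no sex or interaction call was gained. Shares of all probes were not counted for these block fits, the filter on all 24 arrays or fits without an array. They were not counted for females of batch a either. Those counts show only how the family's own calls moved. Levels near background limit the folds, and without background correction the smallest of 24 tissue differences, Cdh1, was 0.14, against 0.33.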
